A study of Homo sapiens with 4 samples.

Results

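The BCL2 family decides whether a cell keeps or loses the integrity of its mitochondrial outer membrane. The survival members BCL2, MCL1, BCL2A1 and BCL2L1 (the gene of BCL-XL) hold the effectors BAX and BAK1 in check, and the BH3-only members BCL2L11 (BIM), BBC3 (PUMA) and PMAIP1 (NOXA) bind the survival members and release that check. Granulocytes are short-lived cells, and the balance of these proteins is known to set how long they survive once they have matured. Open chromatin around these 9 genes, of 20136 protein-coding genes in the annotation, was examined here. A region was taken for a gene when it overlapped the gene body or the 50 kb on either side of it, which gave 89 regions of 78063 in the genome.

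The regions came from ATAC-seq, which marks accessible DNA by the insertion of adapters with the enzyme Tn5. The cells were HL-60, an established line from a human promyelocytic leukemia that turns granulocyte-like in all-trans retinoic acid (ATRA). ATRA-treated cells were kept in 1 µM ATRA for 4 days and control cells in ethanol, the solvent of ATRA, equally long, with 2 replicates each. Both groups were cultures of the same line, and nothing in the labels gives a further genetic change in either. The study describes the replicates as independent biological ones.

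The 4 peak lists held from 42081 to 63541 peaks, with ATRA replicate 2 the longest and the widest (median peak width 416 bp, against 291 to 328 bp in the others), and the sequencing depth is unknown because no read counts come with the peaks. Peaks of the 4 lists that overlapped by at least 1 bp were merged into regions, and each peak was given its score percentile, from 0 for the weakest to 100 for the strongest peak of its own list. Of 6 promyelocyte genes checked, CEBPE and SPI1 had a promoter peak in all 4 libraries and ELANE and AZU1 in none. Of 5 maturation genes, the same 2 (ITGAM and NCF1) had one in every library of both groups, and of 7 genes of other cell types, COL1A1 had one in all 4.

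The 89 regions lay in windows of unequal size, from 104 kb around PMAIP1 to 297 kb around BCL2. By position, 21 overlapped a promoter of some protein-coding gene (1 kb before to 100 bp after a transcription start site), 2 an exon, 27 an intron and 39 lay between genes. Exons and introns were likewise taken from protein-coding genes alone, so exons of other transcripts were not counted. For 64 of the regions, the nearest protein-coding start site was that of the member itself. The windows of BAX and MCL1 also held 5 and 4 other protein-coding genes, whereas the window of PMAIP1 held 0. In consequence, the nearest start site was the member's own for all 13 regions of PMAIP1 but for 1 of the 9 regions of MCL1.

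The question asked of these regions was whether the survival genes and the death genes differed in their accessible sites between ATRA-treated and control cells. The widest gap was at PMAIP1, whose window held 10 and 13 peaks in the ATRA-treated cells, against 6 and 7 in the control cells. BCL2A1, a survival gene of the myeloid lineage, had 9 and 12 peaks after ATRA and 8 in each control library. BCL2L11 had 5 and 3 peaks after ATRA and 2 in each control library. In BAX, the numbers were 4 in each ATRA library and 3 in each control library.

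In these 4 genes, both ATRA libraries exceeded both control libraries, with no overlap between the groups. An exact permutation test over the libraries gave p = 0.333 (two-sided) for each of them, which is the smallest value that 2 libraries against 2 can give. Over all protein-coding genes with a peak in such a window, 23% had more peaks in both ATRA libraries, against 4 of the 9 members. When every list was reduced to its strongest 42081 peaks, the length of the shortest list, the same 4 genes remained. PMAIP1 then had 10 and 12 peaks after ATRA against 6 and 6 in the control. BCL2A1 had 9 and 9 against 8 and 8, BAX 4 and 4 against 3 and 3, and BCL2L11 4 and 3 against 2 and 2. The share over all genes was computed for the full lists only, and not for these lists or the settings that follow. A score minimum of 100 also left 4 genes with more peaks in both ATRA libraries, but these were BAX, BCL2L1, MCL1 and PMAIP1, and windows of 100 kb left BAK1, BAX, BCL2L11 and PMAIP1. When the window was narrowed to 10 kb on either side, only BAX of the 9 members still had more peaks in both ATRA libraries.

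In no member did both ATRA libraries have fewer peaks than both control libraries, which was seen for 3.02% of all genes. BCL2 carried the most peaks, with 17 and 22 after ATRA and 20 and 18 in the controls. MCL1 had 9 and 8 peaks after ATRA and 5 and 9 in the controls, and BCL2L1 had 5 and 8 against 8 and 5. BAK1 had 4 and 6 peaks against 3 and 4, and BBC3 had 6 and 4 against 4 and 5, so that in these 5 genes the libraries of the groups overlapped or met. When libraries were compared within same-numbered pairs, the replicate block, BAK1 joined the 4 genes with more peaks after ATRA, which made 5. Without ATRA replicate 2, BCL2 had fewer peaks in the remaining ATRA library than in both control libraries.

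**Figure D1:**
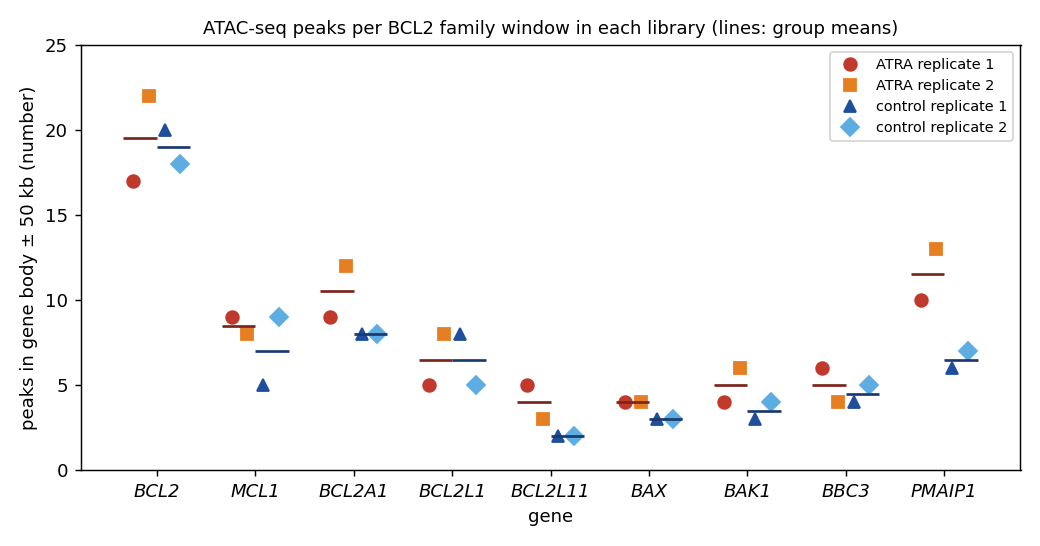
Number of ATAC-seq peaks in the gene body and 50 kb on either side (y axis) for the 9 BCL2 family genes (x axis). Each symbol is 1 library and short lines are group means (n = 2); PMAIP1 stands at 10 and 13 peaks after ATRA and 6 and 7 in the controls, and the symbols of BCL2 and BCL2L1 interleave.

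The study calls a peak convincing when it is found in both replicates. Applied here to merged regions, a region was ATRA-specific when it held a peak of both ATRA libraries and not of both control libraries, and control-specific in the reverse case. Of the 89 regions, 38 were overlapping, 22 were ATRA-specific (24.7%), 8 were control-specific (8.99%) and 21 held a complete pair of neither group. Over the windows of all protein-coding genes, 18% of regions were ATRA-specific and 9.35% were control-specific. When the peaks of the replicates also had to share at least 1 bp themselves, 21 were ATRA-specific and 8 control-specific, with backgrounds of 18.2% and 9.34%, and the region that dropped out was the BCL2 promoter. The count of 22 moved to 35 without ATRA replicate 1 and to 14 without control replicate 1, and the count of 8 moved to 2 without ATRA replicate 1. With lists of equal length, 17.1% of the family's regions were ATRA-specific against 15.7% of the background, and 9.76% were control-specific against 12.2%. The family as a whole thus stood close to the genome-wide share once list length was made equal.

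A stricter reading asked for a peak in both libraries of one group and in neither of the other. This left 10 regions open after ATRA (11.2%, with a background of 8.89%) and 2 open in the control (2.25%, with a background of 3.28%). PMAIP1 held 4 of the 10 and 1 of the 2, and BCL2A1 held 2 of the 10. BCL2, BCL2L11, BAX and BBC3 held 1 each of the 10, and MCL1, BCL2L1 and BAK1 held none in either direction. None of the 12 lay in a promoter.

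**Figure D2:**
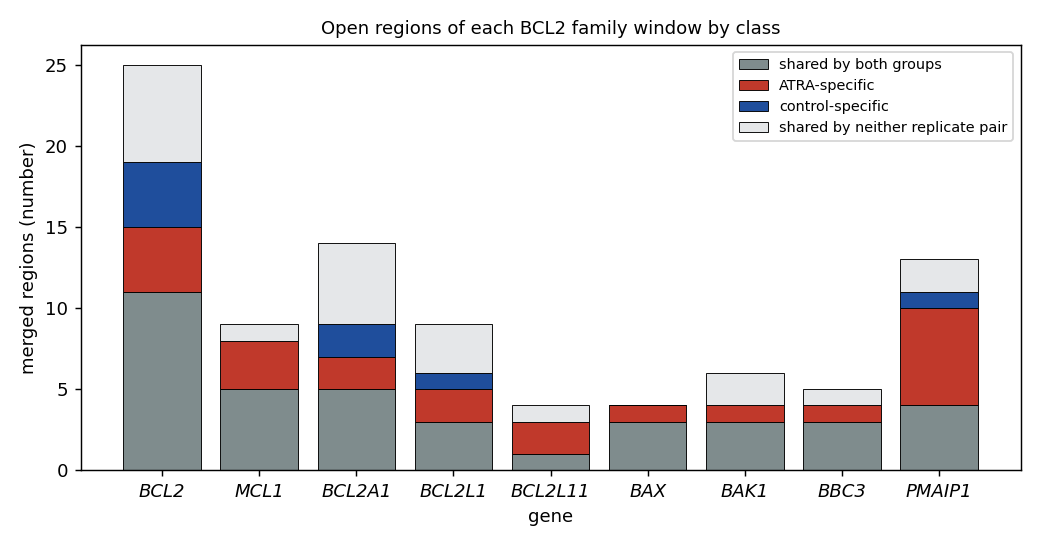
Merged regions (y axis, number) in the window of each gene (x axis), split into those shared by both groups, ATRA-specific, control-specific and those that neither replicate pair shares, by presence in the merged regions. PMAIP1 is the gene with the most ATRA-specific regions, 6 of 13, and BCL2 has equal numbers of the specific classes, 4 each.

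PMAIP1, on chromosome 18 (chr18:57567228-57571537, plus strand; all positions are GRCh37, 1-based), is transcribed in the direction of increasing position. Its promoter region, chr18:57566405-57568544, was open in every library at percentiles of 93.9 and 86.9 after ATRA and 96.5 and 79.2 in the control. The groups overlapped there, and the difference lay outside the promoter. Peaks in the window covered 6379 and 11793 bp after ATRA and 4388 and 3672 bp in the control.

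The ATRA-specific site of highest rank was 11.7 kb downstream of the start site, at chr18:57578481-57579414. It stood at percentiles of 94.1 and 95.2 after ATRA, at 11.3 in control replicate 1, and was absent from control replicate 2. Its peaks were 792 and 934 bp wide after ATRA and 282 bp wide in control replicate 1. Another site 17.5 kb upstream (chr18:57549102-57550076) stood at 83.2 and 80.4 after ATRA, at 24.1 in control replicate 2 and was absent from control replicate 1. A site 34.3 kb upstream (chr18:57532070-57533452) was present in all 4 lists, at 86.6 and 84.9 after ATRA and 58.5 and 1.91 in the control. These 3 sites were picked out after their values were seen, and in each of them both ATRA libraries lay above both control libraries.

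The 4 sites of PMAIP1 found in both ATRA libraries and in neither control library were weaker. They lay 37.6 kb upstream (percentiles 14.4 and 41.3), 22.4 kb upstream (56.8 and 54.3), 17.6 kb downstream (51.7 and 28.0) and 40.2 kb downstream (9.07 and 41.5). The site open in the control alone lay 18.6 kb downstream, at chr18:57585429-57586162, with percentiles of 85.6 and 35.3 in the control. It was separated by 334 bp from the ATRA site at chr18:57584446-57585094, so that neighbouring stretches of DNA had opposite patterns. The strongest distal site of the window over the 4 lists, 21.6 kb downstream, did not part the groups: 83.0 and 90.0 after ATRA and 81.8 and 89.2 in the control.

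**Figure D3:**
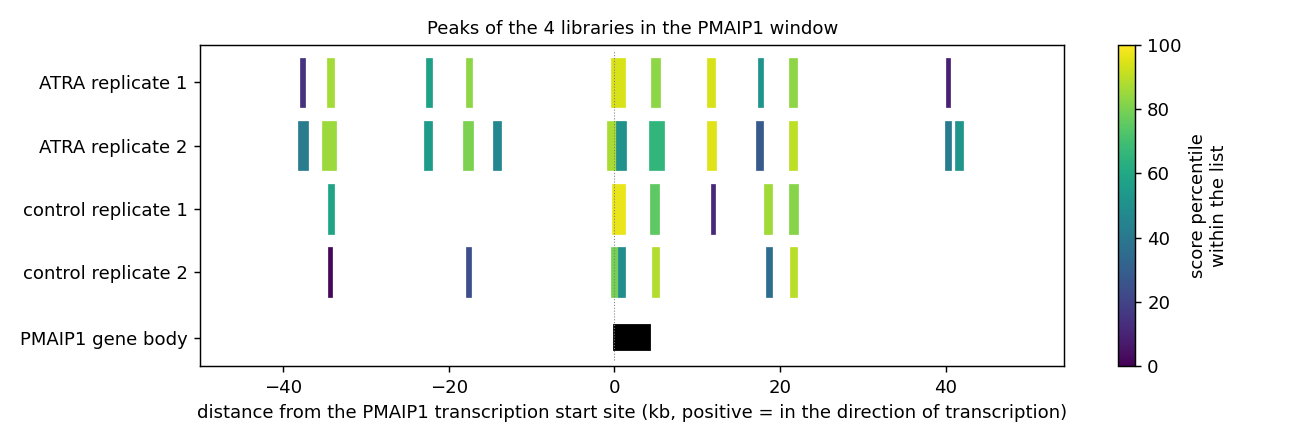
Peaks of the 4 libraries (rows) along the PMAIP1 window, by distance from the transcription start site in kb (x axis); colour is the score percentile within the list, bars are drawn with a minimum line width so that narrow peaks stay visible, and the black bar is the gene body. The promoter is bright in all 4 rows, the site at 11.7 kb is bright (94.1 and 95.2) in both ATRA rows and dark (11.3) in control replicate 1, and peaks at about 18.6 kb are found in the control rows alone.

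Sequences of 200 bases about the centre of the strongest peak of a region were searched on both strands for short motifs of blood and stress-response factors. The letters were GAGGAAGT for PU.1, AGATAA or TGATAA for GATA factors, AACCACA for RUNX, TTGCNNAA for C/EBP and TGAGTCA for AP-1. Over all regions these were found in 8.91%, 18.7%, 8.57%, 12.3% and 5.74% of windows, and in 8, 14, 10, 15 and 10 of the 89 regions of the family. The ETS string CCGGAAGT, which ends like that of PU.1 but cannot match at the same place, was in 1.13% of all regions and in 1 of the family. The E-box CACGTG was in 3.74% and 4, the CTCF motif in 5.84% and 3, and the NF-kB string GGANTTTCC in 0.793% and 0. The DR5 element of retinoic acid receptors, like the CTCF motif searched as a consensus, was in 0.0948% and 0.

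Of the PMAIP1 sites that set the groups apart, those 11.7, 17.6, 18.6 and 40.2 kb downstream are shown. They are given on the plus strand of GRCh37, with the matched letters in capitals. Sequences of the upstream sites are not reported here, so the matches describe only the sequences shown. The site 11.7 kb downstream, chr18:57578848-57579047, holds a PU.1 string on the minus strand. The site 40.2 kb downstream, chr18:57607379-57607578, holds a C/EBP and a PU.1 string. The neighbours with opposite patterns are chr18:57584765-57584964, open after ATRA, with a C/EBP and an AP-1 string, and chr18:57585696-57585895, open in the control, with a GATA and an AP-1 string.
PMAIP1 +11.7 kb: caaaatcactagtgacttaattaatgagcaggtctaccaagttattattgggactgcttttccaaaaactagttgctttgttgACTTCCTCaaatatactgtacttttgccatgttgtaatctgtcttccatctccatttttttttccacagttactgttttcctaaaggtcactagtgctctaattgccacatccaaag
PMAIP1 +40.2 kb: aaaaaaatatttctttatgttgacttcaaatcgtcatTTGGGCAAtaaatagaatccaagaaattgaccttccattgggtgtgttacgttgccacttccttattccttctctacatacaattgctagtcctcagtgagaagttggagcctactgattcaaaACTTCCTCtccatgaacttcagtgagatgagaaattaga
PMAIP1 +17.6 kb: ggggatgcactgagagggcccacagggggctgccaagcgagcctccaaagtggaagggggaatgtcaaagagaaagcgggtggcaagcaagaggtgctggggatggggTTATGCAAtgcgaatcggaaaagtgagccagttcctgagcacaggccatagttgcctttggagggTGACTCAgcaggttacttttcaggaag
PMAIP1 +18.6 kb: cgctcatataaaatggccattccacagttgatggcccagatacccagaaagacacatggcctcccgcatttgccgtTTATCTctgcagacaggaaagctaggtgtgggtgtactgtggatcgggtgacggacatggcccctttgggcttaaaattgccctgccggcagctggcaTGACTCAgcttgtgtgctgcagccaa
The AP-1 string is thus in both neighbours, and the GATA string in the control-only one. A match is a description of letters and not of a bound factor.

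BCL2, the survival gene after which the family is named, lies on the minus strand of chromosome 18 (chr18:60790579-60987361). Some of its sites, picked out after their values were seen for a high rank in the control, ranked lower in both ATRA libraries. Such a choice favours that order, as the choice of high ATRA sites at PMAIP1 favours the reverse. These sites therefore do not set the genes against each other. Another strong control region, chr18:60805037-60806471, overlapped between the groups, at 94.7 and 96.8 in the control and 57.7 and 96.3 after ATRA. The region chr18:60765456-60768667, 219.6 kb downstream of the start site and beyond the end of the gene, stood at percentiles of 98.9 and 98.7 in the control and at 44.5 and 68.0 after ATRA. Its peaks covered 2272 and 2885 bp in the control and 431 and 751 bp after ATRA. Both control libraries lay above both ATRA libraries, in rank and in width.

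Within that region, control replicate 1 had a weak peak at chr18:60765779-60766375 (percentile 25.7) and a strong one at chr18:60766604-60768278 (percentile 98.9, 1675 bp wide), and control replicate 2 had a single peak over both. The ATRA peaks ended at 60766256 and 60766206. They thus overlapped the weak end, and the strong stretch had no peak in either ATRA library. Its 200 bases about the centre of the strong peak, chr18:60767342-60767541, hold a GATA and a C/EBP string.
BCL2 +219.6 kb: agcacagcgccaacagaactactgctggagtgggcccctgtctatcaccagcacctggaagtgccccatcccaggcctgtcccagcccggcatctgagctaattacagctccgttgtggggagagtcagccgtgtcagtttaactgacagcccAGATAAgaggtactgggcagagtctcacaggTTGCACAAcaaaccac
By contrast, the region of the intron at chr18:60919756-60921061 was a single stretch in every library, at percentiles of 96.4 and 94.6 in the control and 38.4 and 76.6 after ATRA.

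At the start of BCL2, an exonic region also ranked lower in both ATRA libraries. The groups could not be ordered at the promoter region, since control replicate 2 had no peak there. The exonic region chr18:60985082-60985764, 1.55 kb inside the gene, stood at 66.9 and 63.6 in the control and at 16.9 and 10.4 after ATRA, with no overlap. The promoter region chr18:60986711-60988422 had a peak of 1593 bp at percentile 72.6 in control replicate 1, none in control replicate 2, and peaks of 389 and 532 bp at percentiles of 11.0 and 10.3 after ATRA. It counted as an ATRA-specific merged region because only the ATRA pair was complete, although its single control peak ranked highest. The ATRA peaks did not overlap each other and were joined through the control peak, so it held no convincing ATRA peak in the sense of the study. A second promoter region, of an internal start site 157.8 kb into the gene, had a peak in control replicate 1 alone (percentile 45.0).

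Other regions of BCL2 did not follow this direction. The strongest distal region, in the intron 83.0 kb from the start site (chr18:60903240-60904808), stood at 95.4 and 98.9 after ATRA and 91.2 and 94.5 in the control. An intronic site 64.2 kb from the start site (chr18:60922590-60923064) was open in both ATRA libraries alone, at percentiles of 16.6 in each, and holds a RUNX string. The site open in the control alone, 20.3 kb upstream in an intron of KDSR (chr18:61007206-61007467), stood at 42.2 and 34.6 and also holds a RUNX string. Of the 11 regions of the window present in all 4 lists, 4 ranked higher and 4 ranked lower in both ATRA libraries than in both control libraries. Over all regions present in all 4 lists, 29.2% ranked higher and 12.8% ranked lower. The counts for BCL2 were not repeated with ranks among those regions, and the difference from these shares was not tested.

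**Figure D4:**
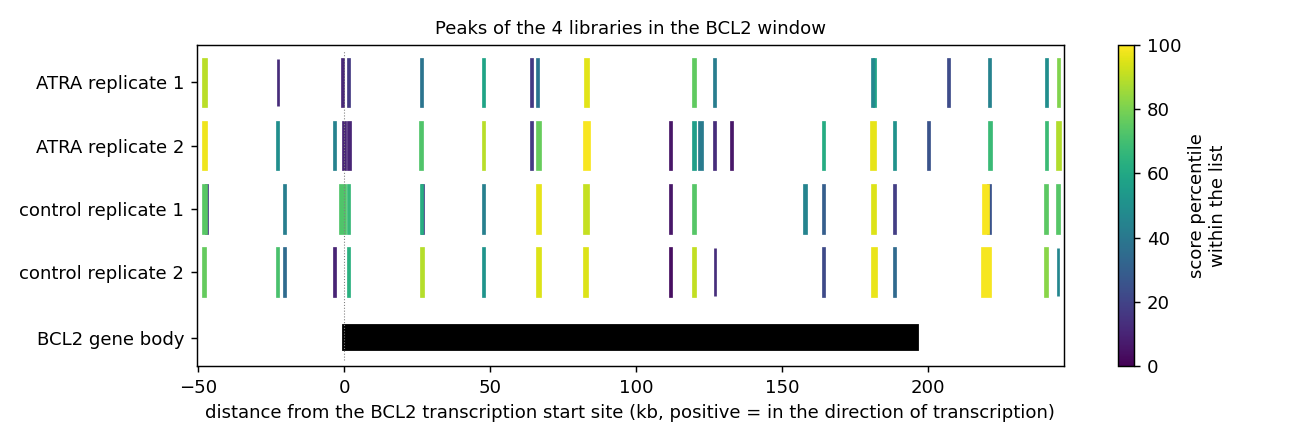
Peaks of the 4 libraries (rows) along the BCL2 window, by distance from the transcription start site in kb (x axis); colour is the score percentile within the list, bars have a minimum line width and the black bar is the gene body. The region at 219.6 kb is brightest in the control rows (98.9 and 98.7) and the site at 83.0 kb is bright in all 4 rows.

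The promoters of the other survival genes were open in all 4 libraries and had higher percentiles within the list in both ATRA libraries. The promoter of BCL2A1 (chr15:80263281-80264010) stood at 63.1 and 70.5 after ATRA and at 31.9 and 36.8 in the control, with peaks of 480 and 730 bp against 346 and 263 bp. That of MCL1 (chr1:150551663-150552733) stood at 90.4 and 85.2 against 68.2 and 82.6, and that of BCL2L1 (chr20:30310935-30312096) at 88.6 and 91.2 against 79.6 and 80.6. In each of these, both ATRA libraries lay above both control libraries. A weaker second promoter region of BCL2L1 (chr20:30310466-30310916) had percentiles of 3.64 and 2.38 after ATRA, 36.6 in control replicate 1 and no peak in control replicate 2.

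BCL2A1 also had upstream sites in both ATRA libraries that neither control library had. They lay 11.0 kb (percentiles 37.6 and 13.3) and 18.6 kb (chr15:80281949-80282464; percentiles 45.4 and 61.9) before the start site. Its strongest distal region, 6.42 kb upstream, stood at 67.0 and 89.2 after ATRA and at 65.8 and 54.4 in the control, where the lowest ATRA value lay above the highest control value by little. Sequences are shown for its promoter, chr15:80263546-80263745, which holds a PU.1 string, and for the upstream site at 18.6 kb, chr15:80282045-80282244, with a GATA and a C/EBP string.
BCL2A1 promoter: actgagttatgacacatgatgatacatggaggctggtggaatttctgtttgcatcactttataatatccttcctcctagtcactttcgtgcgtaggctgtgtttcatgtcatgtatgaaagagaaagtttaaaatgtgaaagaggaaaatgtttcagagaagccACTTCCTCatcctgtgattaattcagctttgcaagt
BCL2A1 -18.6 kb: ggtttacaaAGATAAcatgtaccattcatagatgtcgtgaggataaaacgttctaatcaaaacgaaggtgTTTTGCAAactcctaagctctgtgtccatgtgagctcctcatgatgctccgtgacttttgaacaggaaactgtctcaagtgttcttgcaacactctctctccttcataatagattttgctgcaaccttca
The C/EBP string was in this upstream site and not in the promoter window.

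In the MCL1 window, no region was confined to either group under the stricter reading. Its strongest distal region, 63.9 kb downstream of the start site (chr1:150487924-150488522), stood at 93.7 and 92.9 after ATRA and at 86.7 and 81.2 in the control. Of its 5 regions present in all 4 lists, 4 had higher percentiles within the list in both ATRA libraries, which 29.2% of all such regions did. When ranked among the shared regions, 21.9% of all such regions did, but the count of 4 was not repeated with those ranks. In BCL2L1, the strongest distal region lay in an intron (chr20:30262717-30263500) and stood at 65.1 and 83.8 after ATRA, at 14.1 in control replicate 1, and was absent from control replicate 2.

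Of the effectors, BAX (chr19:49458072-49465055) had the widest separation of the groups among the promoters present in all 4 lists. Its promoter region, chr19:49457783-49458274, stood at 83.8 and 73.5 after ATRA and at 35.6 and 35.8 in the control, with peaks of 446 and 455 bp against 331 and 272 bp. The promoter of BAK1 (chr6:33547830-33548353) stood at 81.9 and 72.5 after ATRA and at 63.4 and 44.4 in the control. In both genes the ATRA libraries lay above the control libraries in percentile within the list. BAX also had a site 7.49 kb from its start (chr19:49465349-49465912), nearest to the start site of FTL, which was open in the ATRA libraries alone at percentiles of 8.83 and 53.0. The strongest distal region of BAK1, 8.95 kb from the start, overlapped between the groups, at 65.4 and 50.3 after ATRA and 71.6 and 51.0 in the control.

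Among the BH3-only genes besides PMAIP1, BCL2L11 had a promoter region (chr2:111877826-111878719) at 57.8 and 81.1 after ATRA and 70.9 and 39.2 in the control, where the groups overlapped. A region over another of its start sites (chr2:111879513-111880317) stood at 49.9 and 34.7 after ATRA, 51.1 in control replicate 1 and was absent from control replicate 2. Its strongest distal region, 88.3 kb from the start (chr2:111966534-111966987), was open after ATRA alone at 73.8 and 66.1. No region overlapped a promoter of BBC3 in any library. Its strongest distal region not at another gene's promoter lay 13.2 kb upstream and stood at 66.2 and 59.8 after ATRA and 83.1 and 59.1 in the control. Its window also held an intronic site of CCDC9, 31.4 kb upstream (chr19:47765681-47766038), open after ATRA alone at 59.0 and 57.2.

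Of the 11 promoter regions of the family, 7 were present in all 4 lists, each of a different gene. In 5 of these 7 (MCL1, BCL2A1, BCL2L1, BAX and BAK1) both ATRA libraries ranked above both control libraries, in BCL2L11 and PMAIP1 the groups overlapped, and in 0 was the order reversed. The share over all promoter regions of the genome was not computed. Percentiles depend on the length of a list, and in regions of all 4 lists their median was 79.2 in ATRA replicate 2. It was 68.9 in ATRA replicate 1 and 68.2 and 70.5 in the control replicates. The promoter count was not repeated with ranks among the regions present in all 4 lists. Promoter regions of BCL2, BCL2L1 and BCL2L11 without a peak in control replicate 2 were left out of this count. In each of those with ATRA peaks, the peak of control replicate 1 ranked above both ATRA peaks, in BCL2L11 at 51.1 against 49.9 and 34.7. The region at the internal start site of BCL2 had no ATRA peak. Over all 38 member regions present in all 4 lists, 18 ranked higher in both ATRA libraries (47.4%, with a background of 29.2%) and 5 ranked lower (13.2%, with a background of 12.8%). When ranks were taken among the regions present in all 4 lists instead, the counts were 14 higher and 8 lower, with a background of 21.9% and 21.8%. By width, 18 of the 38 were wider in both ATRA libraries and 4 narrower, where 37.1% and 3.97% of all such regions were.

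A fit across all 23653 regions present in the 4 lists tested whether any of these rank differences exceeded the spread between replicates. It used limma on normal scores, the standard normal value that corresponds to a peak's rank, and called 0% of the regions at an adjusted p of 0.05. At an unadjusted p under 0.05, 1774 regions were higher and 700 lower after ATRA, among them 6 and 3 of the 38 member regions. The median difference was 0.42 normal scores in the members and 0.14 over all regions. Thus no rank difference of a single member region passed the adjusted test with 2 libraries per group.

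The 2 smallest adjusted p-values from limma among the member regions belonged to BCL2. The region 219.6 kb downstream of its start differed by -2.10 ± 0.36 normal scores (SE, n = 2 per group, limma adjusted p = 0.297). Without control replicate 2, whose wide peak joins both stretches, the weak end alone was compared and the difference was 0.82. The exonic region differed by -1.50 ± 0.32 (limma adjusted p = 0.318), against 0.31 on log2 width, and the intronic region at chr18:60919756-60921061 by -1.49 ± 0.43 (limma adjusted p = 0.375). In the upward direction, the PMAIP1 region 34.3 kb upstream differed by 2.00 ± 0.73 (limma adjusted p = 0.440), the BAX promoter by 1.17 ± 0.33 (limma adjusted p = 0.368) and the BCL2A1 promoter by 0.84 ± 0.32 (limma adjusted p = 0.448). The PMAIP1 site at 11.7 kb was not in the fit, because it had no peak in control replicate 2.

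**Figure D5:**
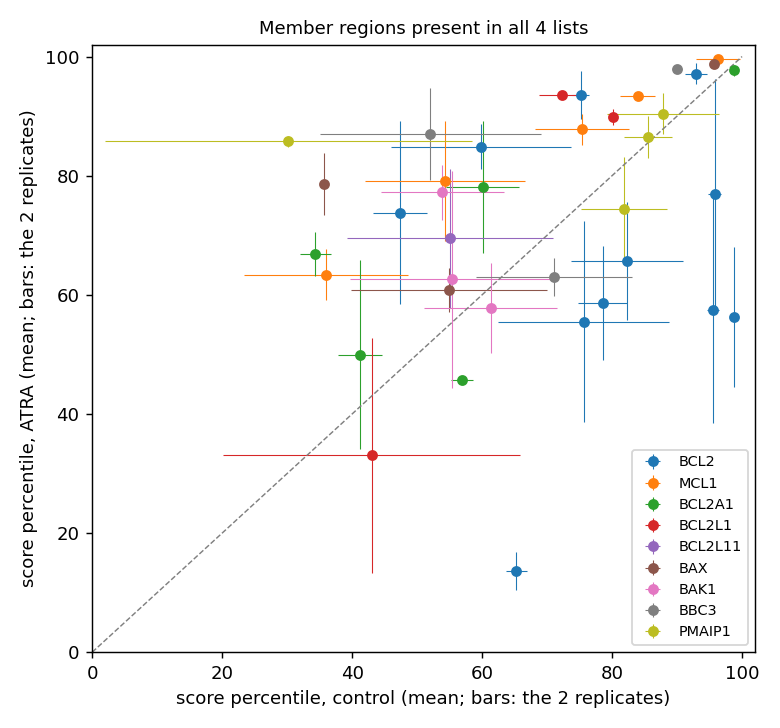
Mean score percentile of the 38 member regions present in all 4 lists, control on the x axis and ATRA on the y axis; bars span the 2 replicates of a group, colours are genes and the dashed line marks equal percentiles. The BAX and BCL2A1 promoters lie above the line, and BCL2 regions at control percentiles of 98.9 and 98.7, 96.4 and 94.6, and 66.9 and 63.6 lie below it.

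The family was set beside 23 other genes of the same pathway, among them further BCL2 relatives, caspases and inhibitors of apoptosis. Their windows held 164 regions, 0 of them shared with the windows of the 9 members. Of these, 20 were ATRA-specific (12.2%) and 11 control-specific (6.71%), and 11 and 3 were open in one group alone. The ATRA-specific share was below the 18% of all gene windows, where that of the 9 members was above it, and the difference was not tested. More peaks in both ATRA libraries were found for 5 of the 23 genes, among them BCL2L15, BIRC2, DIABLO and HTRA2, and fewer for 0. This is 21.7%, near the 23% of all genes. With lists of equal length, 13 of the 145 regions of these genes were ATRA-specific and 15 were control-specific. Over the windows of all protein-coding genes, the shares in such lists were 15.7% and 12.2%. The difference between the classes was not tested.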

How the data were processed

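ATAC-seq of 2 ATRA-treated and 2 control HL-60 libraries was analysed from the peak lists, with groups from their titles. The authors, per the labels and their methods, trimmed adapters (cutadapt), aligned reads to hg19 (Bowtie2) and called peaks per library at default settings. The methods name MACS2 as the peak caller, whereas the labels name both MACS and MACS2. A shift to the Tn5 cut site, duplicate removal and a blacklist filter are not given in the sources used here. Each deposited peak has 5 columns, and the deposited score, at least 50 and at most 3100, has no stated scale and was used as a rank only. Read depth is unknown, and a deeper library can give more and wider peaks. The members and gene lists were chosen with earlier results of these data known.

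Peaks were merged into regions (overlap of at least 1 bp) and placed on GRCh37 with GENCODE release 44, with Python 3.11.15, numpy 2.4.6, pandas 2.3.3, scipy 1.17.1 and matplotlib 3.10.9. Rank differences were tested with limma 3.58.1 in R 4.3.3 (lmFit, eBayes, Benjamini-Hochberg over all regions of the 4 lists, threshold 0.05), checked on simulated data. Regions described singly by rule are member promoters, regions in both libraries of one group alone and regions past the threshold. Per member, the distal region of highest mean percentile (absent counted as 0) is also described. Other regions of PMAIP1 and BCL2 were picked out after their values were seen. Alternatives were a direct overlap of replicate peaks (added after seeing the data), lists of equal length, a score minimum of 100, peaks set to 200 bp, windows of 10 and 100 kb or by nearest start site, other ranks, width, a replicate block and leaving out each library. Sequences were read from GRCh37 and the windows shown lie outside annotated exons. Some single values and sequences are not reported here.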

Additional observations from a re-analysis of the deposited data

How the results depend on the processing

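With only peak lists of unknown depth and 2 libraries per group, presence counts depended on which library and list length were used. In the order ATRA-specific and control-specific regions of the family (22 and 8), then of the other pathway genes (20 and 11), requiring that neither library of the other group had a peak gave 10, 2, 11 and 3. The replicate block, which asks for the difference within both same-numbered pairs, gave the same 10, 2, 11 and 3, since it sets the same condition. Nothing in the sources says that the numbers pair the libraries. The replicate deviations correlated with r = 0.201 between the groups across 23653 regions, and with 2 pairs this was not taken as a pairing. The block left the rank fit at 0 calls and raised the members with more peaks from 4 to 5 by adding BAK1. Lists of equal length gave 14, 8, 13 and 15, and combined with the strict definition, chosen after seeing the data, 7, 3, 7 and 6. A score minimum of 100 gave 5 control-specific regions of the family, 200 bp peaks gave 18 of the other genes, and windows of 10 kb gave 11 and 4 of the family and 1 gene with more peaks. Leaving out each library gave 14 to 35, 2 to 12, 13 to 59 and 4 to 27 regions, 4 to 6 members with more peaks and 0 to 1 with fewer. Of the single regions, BCL2 at chr18:60765456 ranged from -2.40 to 0.82 normal scores as each library was left out; it turned to 0.82 without control replicate 2, because the merged region then splits and its weak end is compared, and BCL2 at chr18:60985082 turned to 0.31 on log2 width, for which the cause was not tested. The rank fit called 0 member regions under every alternative run.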

Other observations

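Among the other pathway genes, 10 had a region in both ATRA libraries and in neither control library in their window. Such regions were 6.71% of the regions of these genes, below the 8.89% of all gene windows. CYCS, the gene of cytochrome c, had one 37.2 kb from its start site at percentiles of 63.9 and 61.7. BID, the BH3-only protein that links death receptors to mitochondria, had one 3.03 kb upstream at 46.5 and 54.1, which also lies in the window of BCL2L13. BMF and CYCS each also had a region open in the control libraries alone, with the CYCS site at percentiles of 3.21 and 56.1. No test was made of these values.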
